A study of Mus musculus with 25 samples.

Results

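A list of 10 genes that mark B cells and the follicles they form was followed across 25 mouse mammary arrays: Ms4a1, Cd79a, Cd79b, Blk, Cr2, Fcer2a, Pax5, Cxcr5, Cd22 and Cxcl13. The members were chosen as a named list, and each was read from its brightest probe set, the one with the highest mean over the 25 arrays. All 10 were among the 19937 genes with a probe set of a single gene symbol, and each of the 10 had 1 such probe set, so no choice between probe sets was needed. Values are the deposited log2 signals, in which a difference of 1 is a doubling.

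The arrays are labelled as 10 mammary tumors of K8-creERT2/PIK3CA H1047R mice (K8 tumors), 10 of Lgr5-creERT2/PIK3CA H1047R mice (Lgr5 tumors), 2 glands of K8-creERT2 control mice (K8 glands) and 3 of Lgr5-creERT2 control mice (Lgr5 glands). Mice were injected with tamoxifen at 7 to 8 weeks of age, which releases the recombinase creERT2 to act and so starts PIK3CA H1047R, an activating mutant of the PI3-kinase catalytic subunit, in keratin 8-positive luminal cells or in Lgr5-positive cells. Tumors were taken whole after they had formed, and RNA of tumor, stroma, fat and immune cells was read together. The control mice carry the creERT2 transgene of their line, and neither their age nor their hormonal state at collection is stated. Strains differ too: K8 mice are mixed FVB/CD1 and Lgr5 mice mixed FVB/C57/BL6, and effects of strain and of line cannot be told apart. Nothing states that the tumors are from different mice, and a p-value here therefore reflects only sample-to-sample spread, part of which may be technical.

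B cells carry an antigen receptor whose signalling chains are Cd79a and Cd79b. In lymph nodes and in lymphoid aggregates of inflamed tissue, follicular stromal cells secrete the chemokine Cxcl13, which draws in B cells through the receptor Cxcr5. Mature follicular B cells display the complement receptor Cr2 and the low-affinity IgE receptor Fcer2a and lose them, with Pax5 and Ms4a1, as they become antibody-secreting plasma cells. The mammary fat pad holds a lymph node, and B cells and plasma cells are also present in mammary tissue itself.

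Groups are named by their labels throughout, because markers of tissue composition did not always follow them. Adipocyte genes (mean of 11) were at 12.51 to 12.69 in Lgr5 tumors 2, 6, 7, 8 and 9. The remaining Lgr5 tumors had 9.49 to 10.94, and the 5 glands, although mammary gland is embedded in fat, had 7.60 to 9.58. Epithelial genes (mean of 10) were at 9.01 to 9.77 in the 5 fat-rich arrays and at 10.68 to 11.45 in the K8 tumors. Cell cycle genes (mean of 11) were at 6.76 to 7.82 in the fat-rich arrays, 8.42 to 9.35 in the K8 tumors and 9.32 to 9.86 in the 5 glands. Squamous genes (mean of 11) were at 5.79 to 6.13, 5.87 to 9.43 and 8.58 to 10.31. What tissue lies behind each label was not tested, and every comparison of labelled groups carries this limit. Array medians lay between 6.34 and 6.43. Precision is limited by how many arrays there are. The deposited table holds no detection calls, so whether a value near 5 lies above background is unknown.

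Promoter windows from RefSeq (GRCm38.p6, 250 bases before to 50 after a transcript start) matched 6 of the 10 members: Cr2, Pax5, Cxcl13, Cd79a, Cd22 and Fcer2a. Each of the 6 had 1 window except Fcer2a, which had 3. Those of Cd79a, Fcer2a, Cd22 and Cxcl13 are shown because these genes followed different patterns over the arrays, as described below. They lie at chr7:24897247-24897546 (+ strand, Cd79a), chr8:3694125-3694424 (- strand, Fcer2a, the window farthest upstream), chr7:30878979-30879278 (- strand, Cd22) and chr5:95956689-95956988 (+ strand, Cxcl13). Each is written 5′ to 3′ in the direction of transcription, and capitals mark a motif match.
Cd79a: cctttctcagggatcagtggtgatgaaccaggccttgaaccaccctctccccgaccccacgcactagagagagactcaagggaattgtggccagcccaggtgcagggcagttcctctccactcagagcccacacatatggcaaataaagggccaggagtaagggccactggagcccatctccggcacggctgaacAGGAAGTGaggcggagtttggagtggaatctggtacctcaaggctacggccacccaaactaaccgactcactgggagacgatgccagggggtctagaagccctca
Fcer2a: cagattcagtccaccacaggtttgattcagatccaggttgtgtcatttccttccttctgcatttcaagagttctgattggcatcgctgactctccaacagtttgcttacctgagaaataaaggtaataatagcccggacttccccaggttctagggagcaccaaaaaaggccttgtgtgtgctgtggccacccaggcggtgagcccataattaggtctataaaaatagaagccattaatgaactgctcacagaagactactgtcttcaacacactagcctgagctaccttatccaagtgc
Cd22: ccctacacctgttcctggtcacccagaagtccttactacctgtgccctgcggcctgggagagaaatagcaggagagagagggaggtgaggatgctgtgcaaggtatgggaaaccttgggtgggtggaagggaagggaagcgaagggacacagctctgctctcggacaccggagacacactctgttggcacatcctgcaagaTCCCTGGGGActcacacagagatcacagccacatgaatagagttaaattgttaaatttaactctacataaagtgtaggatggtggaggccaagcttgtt
Cxcl13: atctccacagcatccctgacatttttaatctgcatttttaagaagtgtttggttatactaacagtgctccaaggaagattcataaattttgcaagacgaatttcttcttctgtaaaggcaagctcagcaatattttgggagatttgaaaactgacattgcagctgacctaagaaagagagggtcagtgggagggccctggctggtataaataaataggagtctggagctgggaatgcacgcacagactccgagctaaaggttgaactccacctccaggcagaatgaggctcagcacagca

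Both strands of the windows were searched for the octamer ATTTGCAT, the Ets motif AGGAAGTG, the palindromic EBF motif and the NF-kappaB motif. Of 32851 windows of the same length, 1.74%, 0.904%, 4.07% and 8.46% held the octamer, the EBF, the Ets and the NF-kappaB motif. The Cd79a window held the Ets letters AGGAAGTG, beginning 55 bases before the start, and the Cd22 window an EBF match, TCCCTGGGGA, beginning 49 bases before it. This EBF motif reads alike on both strands, so the Cd22 match is 1 site. None of the 4 motifs was found in the windows of Cr2, Pax5, Cxcl13 and Fcer2a, which says only that these letters are not in these windows. The Ets and EBF motifs do not overlap each other in either window, and a match is a description of the sequence, not a binding site shown here.

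The signalling chains of the B cell receptor, Cd79a and Cd79b, were highest in 4 arrays labelled Lgr5 tumor (tumors 1, 2, 7 and 8). Cd79a, the alpha signalling chain, was 7.12, 7.57, 8.39 and 8.45 in Lgr5 tumors 1, 2, 7 and 8, and 5.83 in Lgr5 tumor 4. In the 10 Lgr5 tumors its lowest value was 5.18, the median 5.62 and the highest 8.45. In the 10 K8 tumors these were 5.02, 5.12 and 5.38. The glands gave 5.21 and 4.95 (K8) and 5.02, 5.09 and 5.16 (Lgr5), so 8 of the 10 Lgr5 tumors lay above every gland and 7 above every K8 tumor.

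Cd79b, the beta signalling chain, covered a wider range. It was lowest in Lgr5 tumor 3 at 6.83, with a median of 8.43 and a highest value of 9.78 (tumor 8) in the Lgr5 tumors, against 6.80, 7.24 and 8.26 in the K8 tumors. The K8 glands gave 7.40 and 6.97, and the Lgr5 glands 7.22, 6.75 and 7.02. The tumor groups overlapped, and Cd79b was raised in arrays where Cd79a was not: it was 8.68 in Lgr5 tumor 5, where Cd79a was 5.38, and 8.26 in K8 tumor 6, where Cd79a was at its K8 tumor minimum of 5.02.

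Blk, a Src-family kinase of the receptor pathway, moved little in absolute terms. Its lowest, median and highest values were 5.78, 5.96 and 6.27 in the Lgr5 tumors and 5.80, 5.88 and 6.03 in the K8 tumors. The glands gave 5.88 and 5.97 (K8) and 5.93, 5.91 and 5.97 (Lgr5). Lgr5 tumors 1, 2, 7 and 8 were again the highest, at 6.10, 6.12, 6.23 and 6.27.

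Cd22, a sialic-acid binding lectin that dampens receptor signalling, was at most 7.21 with a median of 6.70 in the Lgr5 tumors, where tumor 3 was lowest at 6.20. In the K8 tumors it ranged from 6.10 over a median of 6.33 to 6.70. The K8 glands were at 6.77 and 6.52 and the Lgr5 glands at 6.47, 6.45 and 6.46. The groups overlapped, and for Cd22 the order of arrays differed from that of Cd79a: Lgr5 tumor 10 was at 6.71 and K8 tumor 9 at 6.70, both at or above Lgr5 tumor 2 at 6.69.

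Ms4a1, the B cell surface protein CD20, was 8.01, 7.83, 7.48 and 7.12 in Lgr5 tumors 7, 8, 2 and 1 and 5.77 in Lgr5 tumor 4. The other 5 Lgr5 tumors lay between 4.99 and 5.19. In the K8 tumors it was 4.98 at its lowest, 5.02 at the median and 5.43 at its highest (tumor 7), and in the glands 5.29 and 5.06 (K8) and 5.18, 5.09 and 5.16 (Lgr5). The Lgr5 tumors thus held arrays at the level of the glands beside arrays about 2 to 3 log2 units higher, and 5 of 10 lay above every K8 tumor.

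**Figure D1:**
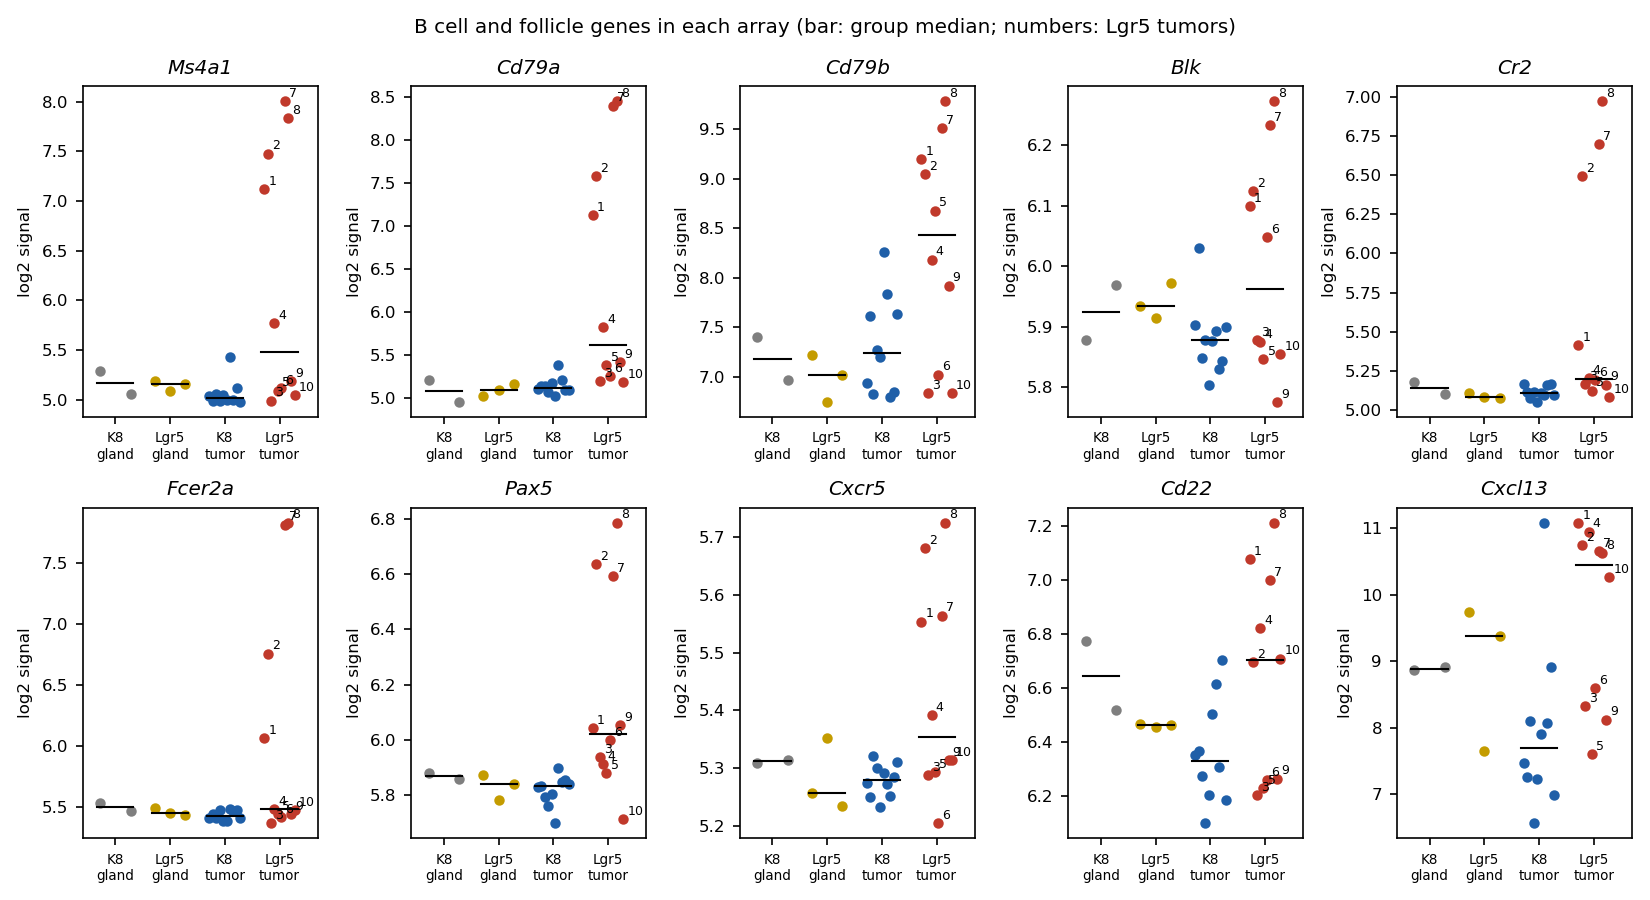
Log2 signal of each of the 10 genes (vertical axes, one scale per gene) in the 25 arrays by labelled group; points are arrays, bars are group medians and numbers name the Lgr5 tumors. Lgr5 tumors 1, 2, 7 and 8 stand above the other arrays for Ms4a1 (7.12 to 8.01) and Cd79a (7.12 to 8.45), while Cxcl13 is also 11.08 in K8 tumor 7.

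The follicular receptors separated arrays that Ms4a1 and Cd79a did not. Cr2, the complement receptor CD21 of mature B cells and follicular dendritic cells, was 6.49, 6.70 and 6.97 in Lgr5 tumors 2, 7 and 8 but 5.41 in Lgr5 tumor 1. The other 6 Lgr5 tumors lay between 5.09 and 5.20, the K8 tumors between 5.05 and 5.17 (median 5.11), and the glands at 5.18 and 5.10 (K8) and 5.11, 5.08 and 5.08 (Lgr5). The median of the Lgr5 tumors was 5.20. Apart from tumors 1, 2, 7 and 8, the Lgr5 tumors lay within 0.10 of the K8 tumor median.

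Fcer2a, the low-affinity IgE receptor CD23 of follicular B cells, had the same 3 arrays on top, with 6.76, 7.82 and 7.83 in Lgr5 tumors 2, 7 and 8, and 6.06 in Lgr5 tumor 1. The other 6 lay between 5.37 and 5.49, within reach of the K8 tumors (5.39 to 5.49, median 5.43). The glands gave 5.54 and 5.47 (K8) and 5.49, 5.45 and 5.44 (Lgr5), and the Lgr5 tumor median was 5.48. Lgr5 tumor 4, which was raised for Ms4a1 and Cd79a, was not raised for Fcer2a (5.49) or Cr2 (5.20).

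The difference between Lgr5 tumor 1 and the other high arrays can be read on each probe set's own scale as the distance from the K8 tumor median. Lgr5 tumor 1 stood 2.10 above it for Ms4a1 and 2.00 for Cd79a, close to the 2.46 and 2.46 of Lgr5 tumor 2. For Cr2 the same distances were 0.30 and 1.38, and for Fcer2a 0.63 and 1.33. Lgr5 tumors 7 and 8 were at 2.99 and 2.81 for Ms4a1, 1.59 and 1.86 for Cr2, and 2.39 and 2.40 for Fcer2a. These are values of single arrays, and their differences have no replicate test.

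Pax5, the transcription factor that sets B cell identity, was 6.64, 6.59 and 6.79 in Lgr5 tumors 2, 7 and 8 and 6.04 in Lgr5 tumor 1. Its lowest, median and highest values were 5.71, 6.02 and 6.79 in the Lgr5 tumors and 5.70, 5.83 and 5.90 in the K8 tumors. The glands gave 5.88 and 5.86 (K8) and 5.87, 5.78 and 5.84 (Lgr5). Here 8 of 10 Lgr5 tumors lay above every K8 tumor and every gland, although 5 of those 8 did so by less than 0.25.

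Of the chemokine axis, the receptor Cxcr5 followed the B cell genes and the ligand Cxcl13 did so in part. Cxcr5 was 5.55, 5.68, 5.56 and 5.72 in Lgr5 tumors 1, 2, 7 and 8, and it ranged from 5.20 to 5.72 (median 5.35) in the Lgr5 tumors and from 5.23 to 5.32 (median 5.28) in the K8 tumors. The glands gave 5.31 and 5.31 (K8) and 5.26, 5.35 and 5.23 (Lgr5). Its differences were small on this array, at most 0.45 above the K8 tumor median.

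Cxcl13 was high in 6 Lgr5 tumors: 11.08, 10.75, 10.95, 10.65, 10.63 and 10.26 in tumors 1, 2, 4, 7, 8 and 10. The other 4 (tumors 3, 5, 6 and 9) lay between 7.60 and 8.59, and the group median was 10.45. In the K8 tumors it ranged from 6.56 to 11.08 with a median of 7.69, and K8 tumor 7 at 11.08 stood apart from the next highest at 8.91. The glands gave 8.87 and 8.91 (K8) and 9.74, 7.65 and 9.39 (Lgr5). Lgr5 gland 2 thus lay among the low tumors, and the other 4 glands above the low and below the high Lgr5 tumors.

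In Lgr5 tumor 10 Cxcl13 was high while the B cell genes were not. It was 2.57 above the K8 tumor median while Ms4a1 was 0.02 and Cd79a 0.06 above theirs. In K8 tumor 7, Ms4a1 at 5.43 and Cd79a at 5.38 were each the highest of the K8 tumors. In Lgr5 tumor 4, Cxcl13 was 3.26 above the K8 tumor median and Ms4a1 0.75. The 5 Lgr5 tumors with the highest Ms4a1 (tumors 1, 2, 4, 7 and 8) all had Cxcl13 between 10.63 and 11.08.

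Between the tumor groups, the study's design asks whether tumors of the keratin 8 line differ from those of the Lgr5 line. Of the 10 members 6 were lower in the K8 tumors (n = 10) than in the Lgr5 tumors (n = 10) in limma at a Benjamini-Hochberg adjusted p under 0.05. Of all genes tested, 21.3% were called, with 12.3% higher and 9.00% lower in the K8 tumors. All 10 members had a negative difference, with a median of -0.60 against 0.01 over all genes. In bulk tissue fewer cells of a type and less RNA per cell cannot be told apart.

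Among the receptor genes Cd79a fell by 1.24 ± 0.39 (SE; limma adjusted p = 0.0292) and Cd79b fell by 0.98 ± 0.35 (limma adjusted p = 0.0492). Ms4a1 fell by 1.10 ± 0.37 (limma adjusted p = 0.0373), a fold of 2.14. Pax5 fell by 0.34 ± 0.11 (limma adjusted p = 0.0311) and Cxcr5 fell by 0.15 ± 0.05 (limma adjusted p = 0.0473). Cxcl13 had the widest gap, -1.74 ± 0.55 (limma adjusted p = 0.0310), a fold of 3.34.

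The remaining 4 did not pass. Blk differed by -0.12 ± 0.05 (limma adjusted p = 0.119), Cr2 by -0.54 ± 0.21 (limma adjusted p = 0.0749), Fcer2a by -0.67 ± 0.28 (limma adjusted p = 0.0908) and Cd22 by -0.29 ± 0.12 (limma adjusted p = 0.0988). For Cr2 and Fcer2a the SD of the Lgr5 tumors was 0.75 and 1.00, against 0.04 and 0.04 in the K8 tumors. An SD within the Lgr5 tumors above the difference of the means was also seen in members that passed, such as Ms4a1 (SD 1.28) and Cd79a (SD 1.36).

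The count rested on few arrays. It was 0 of 10 without Lgr5 tumor 2, 7 or 8 alone, and also 0 without Lgr5 tumors 2, 6, 7, 8 and 9 together or with the adipocyte mean as a covariate. It was 2 without K8 tumor 4, 5 or 10, 3 without K8 tumor 1, 2, 3 or 8 or Lgr5 tumor 1, and 2 in a fit on these groups alone. Without the 5 arrays limma called 0 of all genes, and the Cd79a difference was -0.60 ± 0.22. Over the fits without 1 array, the Cd79a difference lay between -1.37 and -1.01 and its limma adjusted p between 0.0131 and 0.0612. A call depends on the adjustment over all genes, so a fall of the count need not be particular to the members.

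**Figure D2:**
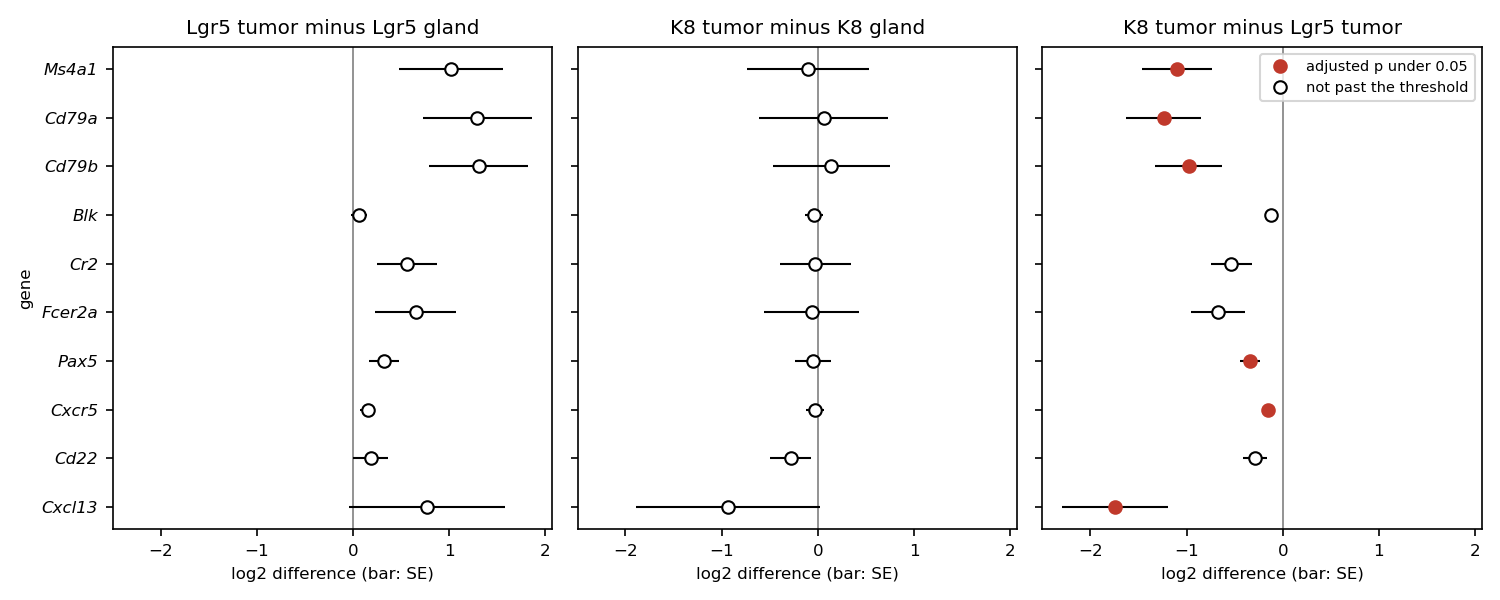
Log2 difference of each gene (points) with its SE (bars) from limma in 3 comparisons; filled points passed an adjusted p of 0.05. In K8 minus Lgr5 tumors all 10 points lie below 0 and 6 are filled, and in the tumor-gland comparisons none is filled.

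Against the glands of the same line, 0 of 10 members passed in the Lgr5 line (limma; 2 members had an unadjusted p under 0.05). Of all genes 15.9% were called, with 5.28% of all genes higher and 10.6% lower in the Lgr5 tumors. These comparisons share the tumor arrays with the one above, and they follow the labels, whose limits are given above. All 10 members had a positive difference, with a median of 0.61 against -0.01 over all genes. Cd79b differed by 1.31 ± 0.51 (limma adjusted p = 0.083), Cd79a by 1.29 ± 0.57 (limma adjusted p = 0.12) and Ms4a1 by 1.02 ± 0.54 (limma adjusted p = 0.198). Cxcl13 differed by 0.77 ± 0.81 (limma adjusted p = 0.562). Cd79b alone passed without Lgr5 tumor 3 (1.47, limma adjusted p = 0.0368) or without Lgr5 tumor 10 (1.47, limma adjusted p = 0.0302), and 6 members passed with array weights, under which limma called 7815 of all genes.

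In the K8 line 0 of 10 members passed (limma; 0 members at an unadjusted p under 0.05). Of all genes 9.10% were called, with 3.42% higher and 5.69% lower in the K8 tumors. The median difference was -0.05 over the members and -0.01 over all genes. Cxcl13 differed by -0.93 ± 0.95 (limma adjusted p = 0.63), Cd22 by -0.28 ± 0.21 (limma adjusted p = 0.467) and Ms4a1 by -0.11 ± 0.63 (limma adjusted p = 0.959). With 2 glands the SE of a member was up to 0.95, so differences of that size could not be resolved in this fit. All 4 groups share 1 estimate of the spread, so the SE also carries the spread of the Lgr5 tumors. For Ms4a1 the SD was 0.14 in the K8 tumors and 0.16 in the K8 glands, against 1.28 in the Lgr5 tumors. For Cxcl13 it was 1.29 in the K8 tumors and 1.36 in the Lgr5 tumors.

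Whether the tumor-gland difference itself differed between lines was tested as the difference of these contrasts, and 0 of 10 members passed (limma; 0% of all genes; 0 members at an unadjusted p under 0.05). The value for Cd79a was -1.23 ± 0.88 (limma adjusted p = 0.781) and that for Cxcl13 -1.70 ± 1.25 (limma adjusted p = 0.781). Between the K8 and Lgr5 glands 0 of 10 passed as well (limma; 0% of all genes; 0 members at an unadjusted p under 0.05), and the member differences lay between -0.04 and 0.19.

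Read array by array, the members stood out in a few Lgr5 tumors. A gene was counted where its value in an Lgr5 tumor lay above all 15 arrays outside that group. This held for 9 of 10 members in Lgr5 tumor 1 (6.12% of all genes), 8 in tumor 2 (18.8%), 9 in tumor 7 (18.1%), 9 in tumor 8 (22.4%) and 6 in tumor 4 (5.88%). It held for 3 members in tumor 6 (20.2%), 2 in tumor 9 (15.1%), 2 in tumor 5 (4.64%), 1 in tumor 3 (7.45%) and 0 in tumor 10 (4.35%). These are counts of single arrays, with no test.

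The fat-rich arrays did not all carry the B cell genes. Lgr5 tumors 6 and 9, with adipocyte means of 12.51 and 12.53, had member means of 6.01 and 6.07, within the 5.75 to 6.40 of the K8 tumors. Lgr5 tumors 7 and 8, with adipocyte means of 12.51 and 12.56, had member means of 7.65 and 7.75. Lgr5 tumor 1 reached a member mean of 7.08 with an adipocyte mean of 10.39 and an epithelial mean within the range of the K8 tumors. This adipocyte mean was below the fat-rich arrays but above all 5 glands (at most 9.58). It was also above every K8 tumor except tumor 7 (11.22). The arrays with a member mean of 6.40 or more were Lgr5 tumors 1, 2, 4, 7 and 8 and K8 tumor 7. All of them had adipocyte means of 10.39 or more. The part of fat or epithelial content in the tumor comparison was otherwise not tested beyond the covariate fit above.

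**Figure D3:**
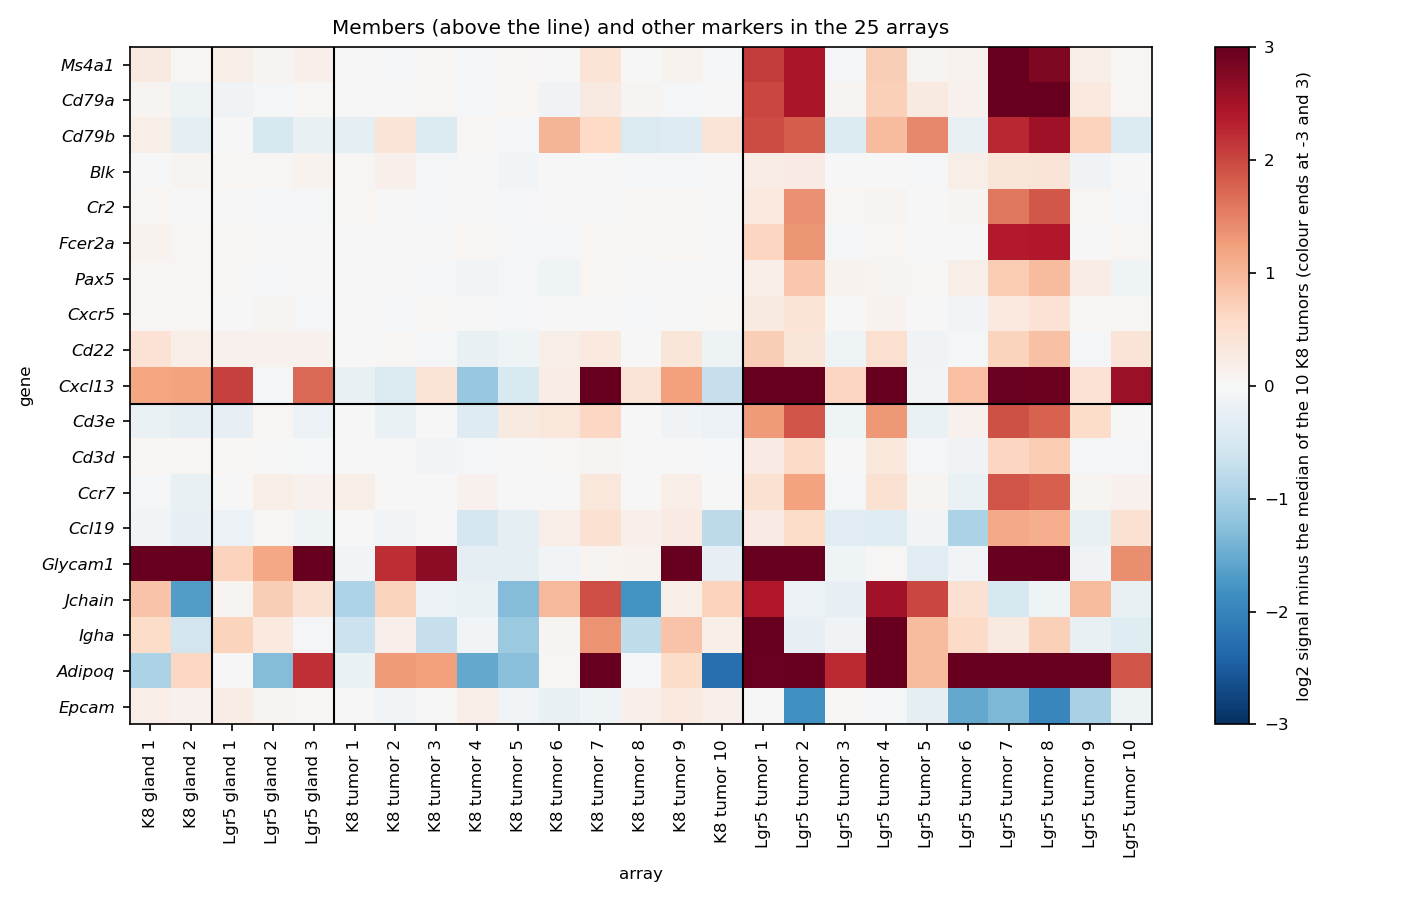
Difference of each gene (rows; the 10 members above the line, markers of other cells below it) from its median in the 10 K8 tumors, in log2 units, for the 25 arrays (columns). Lgr5 tumors 1, 2, 7 and 8 are high for Ms4a1 (2.10 to 2.99) and Glycam1 (3.30 to 5.11), and Lgr5 tumors 1 and 4 for Igha (2.99 and 3.61).

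Other B lineage genes moved in the same direction in part. Of 33 measured genes of receptor signalling and B cell identity, 7 were lower in the K8 than in the Lgr5 tumors. Among the others 0 were higher and 26 did not pass, and the median difference of the 33 was -0.16. Over all genes 9.00% were called lower and 12.3% higher. Ebf1, a B lineage transcription factor that adipocytes also express, fell by 1.55 ± 0.43 (limma adjusted p = 0.0186). Ebf1 was 2.39 to 2.65 above the K8 tumor median in Lgr5 tumors 2, 6, 7, 8 and 9, all 5 of the fat-rich arrays. Cd37, a leukocyte tetraspanin, fell by 1.05 ± 0.29 (limma adjusted p = 0.0195). Fcrla, an intracellular Fc receptor-like protein of B cells, fell by 0.24 ± 0.07 (limma adjusted p = 0.0214). Bank1, a B cell scaffold protein, fell by 0.83 ± 0.25 (limma adjusted p = 0.0269). In Lgr5 tumors 6, 9 and 10, Ms4a1 was only 0.10, 0.17 and 0.02 above the K8 tumor median. There Cd37 was 1.55, 1.13 and 1.31 above its own, Bank1 differed by 0.59, 1.07 and -0.24, and Fcrla by 0.15, 0.08 and 0.06.

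Of the plasma cell genes, Igha and Jchain were high in other arrays than the follicular receptors. Irf4 was highest in the same arrays as those receptors but was raised in others too. Igha, the constant region of IgA, was chosen for description after its values were seen. It reached 11.03 in Lgr5 tumor 1 and 11.65 in tumor 4, against 7.79, 8.31 and 8.76 in tumors 2, 7 and 8 and no more than 9.38 in any K8 tumor. Jchain, which joins IgA and IgM into polymers, had its highest Lgr5 tumor values in tumors 1, 4 and 5, at 10.27, 10.40 and 9.87, and lay at 7.70, 7.41 and 7.75 in tumors 2, 7 and 8. Over the 10 plasma cell genes measured, the mean reached 8.75 in Lgr5 tumor 1 and 9.01 in tumor 4. Tumors 2, 7 and 8 had 7.59, 7.82 and 7.73, and the K8 tumors 7.51 to 8.37. The list was not uniform. Sdc1, a syndecan of plasma cells and epithelium, was 10.39 and 10.50 in tumors 1 and 4, within the K8 tumors (10.02 to 11.23), and 8.95, 9.16 and 8.60 in tumors 2, 7 and 8. Irf4, a transcription factor of plasma cells and activated lymphocytes, was highest in Lgr5 tumors 7, 8 and 2, at 8.21, 7.73 and 7.53. It was 7.35 in tumor 6, 7.17 and 6.63 in tumors 4 and 1, and at most 7.15 in the K8 tumors. In the fat-rich Lgr5 tumors 2, 6, 7, 8 and 9, Irf4 was 1.73, 1.55, 2.41, 1.93 and 1.14 above the K8 tumor median.

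Lgr5 tumor 1 therefore combined high Ms4a1 and Cd79a with high Igha and Jchain, while its Cr2 and Fcer2a lay above all 15 arrays outside the Lgr5 tumors but below Lgr5 tumors 2, 7 and 8. Lgr5 tumors 2, 7 and 8 combined high Ms4a1, Cr2, Fcer2a and Irf4 with Igha and Jchain within the range of the K8 tumors. Irf4 was not particular to these 3 arrays. It was also 1.55 and 1.14 above the K8 tumor median in Lgr5 tumors 6 and 9, where Ms4a1 was 0.10 and 0.17 above its own. Between the tumor groups 1 of 10 plasma cell genes passed, against 9.00% of all genes called lower: Irf4 fell by 0.96 ± 0.26 (limma adjusted p = 0.0184). Ighm, the constant region of IgM, differed by -0.69 ± 0.26 (limma adjusted p = 0.0627), Igha by -0.88 ± 0.46 (limma adjusted p = 0.173) and Jchain by -0.70 ± 0.50 (limma adjusted p = 0.333).

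**Figure D4:**
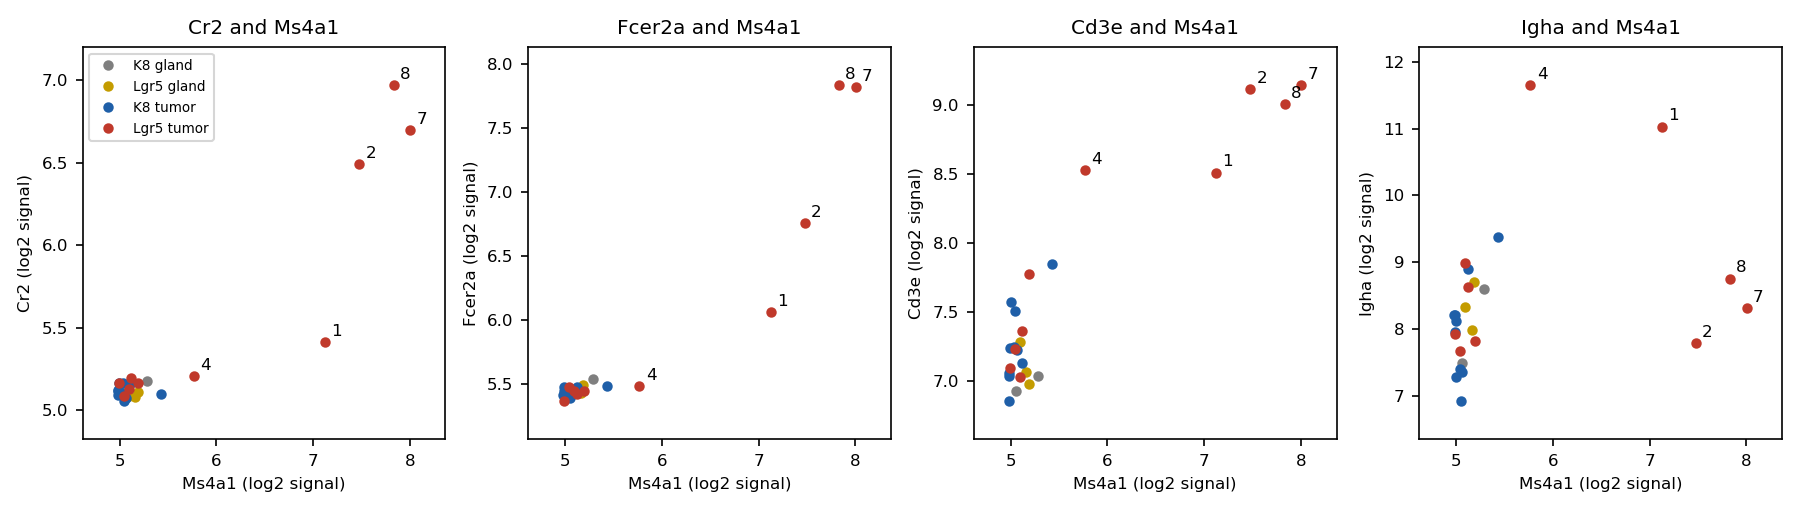
Log2 signal of Cr2, Fcer2a, Cd3e and Igha (vertical axes) against that of Ms4a1 (horizontal axis) in the 25 arrays, coloured by labelled group; numbers name the Lgr5 tumors above every K8 tumor for Ms4a1. Lgr5 tumors 2, 7 and 8 are high for Cr2 (6.49 to 6.97) and low for Igha (7.79 to 8.76), and tumors 1 and 4 have less Cr2 (5.41 and 5.20) and more Igha (11.03 and 11.65).

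Germinal centre genes, which mark B cells dividing within follicles, did not separate the arrays in this way. Of 9 measured, 1 was lower in the K8 than in the Lgr5 tumors, near the 9.00% of all genes called lower. This gene, Gcsam, a germinal centre signalling protein, fell by 0.37 ± 0.11 (limma adjusted p = 0.0226). Fas differed by -0.34 ± 0.13 (limma adjusted p = 0.0554), Rgs13 by -0.09 ± 0.04 (limma adjusted p = 0.129) and Mybl1 by 0.37 ± 0.19 (limma adjusted p = 0.171). The list mean was 7.26, 7.01 and 7.03 in Lgr5 tumors 2, 7 and 8, against 7.08 to 7.33 in the K8 tumors.

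T cell genes were high in the arrays with high B cell genes. Of 17 measured T cell genes 8 were lower in the K8 than in the Lgr5 tumors, against 9.00% of all genes called lower. The median difference of the 17 was -0.35. Cd3e, a chain of the T cell receptor complex, fell by 0.81 ± 0.26 (limma adjusted p = 0.0335), Cd2 fell by 0.58 ± 0.18, Cd5 fell by 0.47 ± 0.15 and Cd27 fell by 0.47 ± 0.15. The T cell list mean was 6.65, 7.02, 6.57, 7.06 and 6.98 in Lgr5 tumors 1, 2, 4, 7 and 8, and 5.90 to 6.29 in the K8 tumors. Of the 17 genes 16 lay above all 15 arrays outside the Lgr5 tumors in each of Lgr5 tumors 2, 7 and 8. The same held for 18.8%, 18.1% and 22.4% of all genes in these arrays. Ptprc, the common leukocyte antigen CD45, did not pass (-0.46 ± 0.18, limma adjusted p = 0.0752).

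Of 20 genes of lymphoid stroma and vessels measured, 1 was lower and 2 were higher in the K8 tumors, shares no larger than the 9.00% and 12.3% of all genes. Ltb, a lymphotoxin that lymphocytes use to organise stroma, fell by 0.55 ± 0.18 (limma adjusted p = 0.0339), Il7, a survival factor for lymphocytes, rose by 1.33 ± 0.43 (limma adjusted p = 0.0335) and Mfge8, a milk fat globule protein also made by follicular dendritic cells, rose by 0.51 ± 0.18 (limma adjusted p = 0.0464). Ccr7, the receptor that guides lymphocytes to T cell zones, was 7.60, 8.27 and 8.18 in Lgr5 tumors 2, 7 and 8, 6.86 and 6.85 in tumors 1 and 4, and at most 6.74 in the K8 tumors. Its ligand Ccl19 reached 10.38 in Lgr5 tumor 7 and 10.33 in tumor 8, and no K8 tumor was above 9.68.

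Glycam1, a ligand of L-selectin on high endothelial venules that milk-secreting cells also make, reached 9.54, 9.13, 10.87 and 10.94 in Lgr5 tumors 1, 2, 7 and 8. It stood at 5.87 in Lgr5 tumor 4, where Ms4a1 was 5.77, and 7.22 in tumor 10. It also reached 11.63 in the K8 tumors and 12.39 and 12.40 in a K8 and an Lgr5 gland, and its difference between tumor groups was -0.80 ± 0.97 (limma adjusted p = 0.599). Madcam1, a vascular ligand for homing lymphocytes, differed by 0.05 ± 0.17 (limma adjusted p = 0.887).

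The 10 genes whose values over the 25 arrays were most like the mean of the members were Cd5, Ikzf3, Cd3d, Cd2, Ubash3a, Fcmr, Cd6, Cd27, Ccr7 and Spib, of 18319 genes compared. Their Pearson r was 0.93 to 0.97 and their Spearman rho 0.49 to 0.82, and without the 2 arrays farthest from the median, Lgr5 tumors 7 and 8, r was 0.83 to 0.95. All points share the normalization of 1 table and rest on the same few high arrays, so these are descriptions. Of the 10, 5 are on the T cell list, 3 on the B lineage list, and Ubash3a is on none of the lists. Within the 10 K8 tumors their r was 0.40 to 0.90.

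The members themselves were related to different degrees. Over the 25 arrays Ms4a1 and Cd79a had r = 0.99, Cr2 and Fcer2a 0.98, and Cr2 and Pax5 0.97. Cd22 and Cxcl13 had r = 0.83 with each other but 0.78 and 0.68 with Ms4a1 and 0.66 and 0.52 with Cr2. Cd79b and Blk had r = 0.86 and 0.84 with Cd79a, 0.77 and 0.84 with Cr2, and 0.68 with each other.

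Within the 10 K8 tumors, Cd22 and Cxcl13 varied with the macrophage and T cell lists. Against the mean of 12 macrophage genes Cd22 had r = 0.90 (permutation p = 0.0004, adjusted 0.00493) and rho = 0.84 (permutation p = 0.00373, adjusted 0.0635). Without the 2 tumors farthest from the median, r was 0.87. Cxcl13 had r = 0.76 (permutation p = 0.00355, adjusted 0.0178) and rho = 0.70 (permutation p = 0.0309, adjusted 0.124), and r = 0.70 without the 2 farthest.

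Against the T cell list Cd22 had r = 0.90 and Cxcl13 r = 0.87 (permutation p = 0.00074 and 0.00058, both adjusted to 0.00493), with rho of 0.78 and 0.77 (adjusted permutation p = 0.0635 for each), and r of 0.80 and 0.65 without the 2 farthest. Ms4a1 had r = 0.75 with the T cell list (permutation p = 0.00647, adjusted 0.0259) and rho = 0.78 (permutation p = 0.0106, adjusted 0.0635). Its r was 0.20 without the 2 farthest, so this relation rests on those tumors. Ms4a1 had r = 0.59 with the macrophage list (adjusted permutation p = 0.133). Cd79a had r = 0.31 with the macrophage list and 0.46 with the T cell list (adjusted permutation p = 0.687 and 0.451). Cd79b, with an SD of 0.50 in these tumors against 0.19 for Cd22, had r = 0.50 and 0.31 (adjusted permutation p = 0.409 and 0.687). In all 20 relations were computed in this group, the p-values are two-sided over 100000 permutations, and no rho passed after adjustment. Neither the labels nor the table give a batch, so none was examined.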

How the data were processed

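Per the labels' protocols, 100 ng of total RNA per tumor or gland was amplified with a whole-transcript kit and hybridised to Affymetrix arrays. The authors deposited log2 signals of 34760 probe sets for each of 25 arrays; base 2 is taken from their range of 4.13 to 13.9. The submitters' processing notes name affy, with no version. The background correction, the summarization and the genome build are not stated there. Columns were joined to samples by identifier. The platform annotation gave 21640 probe sets 1 symbol, 1321 several and 11799 none; the brightest per symbol was kept, which left 19937 genes.

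limma 3.58.1 in R 4.3.3 fitted the 4 group means to all arrays (lmFit, eBayes without trend), with Benjamini-Hochberg adjustment over all genes at 0.05. Errors beside differences are SEs. On simulated data with 19937 genes it recovered 93% of those changed by 1 and 98% of those changed by 2 (log2) between tumor groups, with 13 false calls. The same shares were 85% and 96% for the Lgr5 line, tumor against gland, 81% and 93% for the K8 line, 71% and 93% between gland groups, and 65% and 89% for the contrast of contrasts. In the simulation a gene had the same spread in all groups, and a change shifted every array of a group. Members such as Fcer2a differed in SD between the tumor groups and rose in only some Lgr5 tumors. The shares do not describe such genes.

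The members, the 16 gene lists (221 genes, of which 202 were measured; the others were not analysed here) and the tests were chosen with earlier results of these data known. Genes named are the 10 members, the 10 of most like pattern without predicted, RNA or receptor-segment genes, per list the 4 smallest adjusted p-values between tumor groups, and a set of defining markers; Igha was added after its values were seen. The text draws on the lists that bear on lymphoid tissue. Alternatives were fits on the compared groups only, the replicate number as a block, array weights, trend and robust eBayes, quantile normalization, the mean over probe sets, leaving out the dimmest 40% of genes, leaving out arrays, and the adipocyte mean as a covariate. Figures were drawn with matplotlib 3.10.9.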

Additional observations from a re-analysis of the deposited data

Results flagged for a closer look

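In groups of 10 arrays, the highest or lowest value of a member was compared with its neighbour by Dixon's test, whose critical value is 0.466. Of 20 such groups 4 held a value that stood apart. The members vary together over the same arrays, so the 20 groups are not independent and no chance rate is set beside the count. All 4 were in the K8 tumors. K8 tumor 7 was highest for Ms4a1, at 5.43 against 5.12 for the next array, for Cd79a, at 5.38 against 5.21, and for Cxcl13, at 11.08 against 8.91. K8 tumor 7 also had the highest adipocyte mean of the K8 tumors (11.22), the highest T cell mean (6.29) and the highest macrophage mean (10.37). Blk was highest in K8 tumor 2, at 6.03 against 5.90. In the Lgr5 tumors no value of a member stood apart by this test, since several arrays were high together.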

How the results depend on the processing

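Of the 10 members, the 6 called lower in K8 than in Lgr5 tumors became 9 with array weights, 6 with trend and robust eBayes or the mean over probe sets, and 5 after quantile normalization. The count was 2 in a fit on these groups only, 2 of the 3 members left when the dimmest 40% of genes were left out, 6 after dropping K8 tumor 9 with Lgr5 tumor 10, and 0 without Lgr5 tumors 2, 7 and 8, without Lgr5 tumors 2, 6, 7, 8 and 9, without all 7 arrays, or with the adipocyte mean as a covariate. Leaving out single arrays gave 0 to 8. The calls of Cd79a and Pax5 were lost without Lgr5 tumor 2, 7 or 8 only, that of Cxcl13 in 6 of 20 such fits, Ms4a1 in 12, and Cd79b and Cxcr5 in 15 each. With the replicate number as a block the count was 4; same-numbered tumors had correlations of -0.15 to 0.51 and 1 of 10 correlated best with its own number, so the arrays share only a number.

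The count for Lgr5 tumors against Lgr5 glands was 6 with array weights, 1 after dropping K8 tumor 9 with Lgr5 tumor 10, 0 to 1 without single arrays, and 0 otherwise. The 3 other comparisons gave 0 throughout. With the adipocyte covariate, signs turned against Lgr5 glands for Blk (-0.089), Cr2 (-0.033), Fcer2a (-0.076), Pax5 (-0.048), Cd22 (-0.024) and Cxcl13 (-0.69), against K8 glands for Cd79a (-0.18) and Cd79b (-0.034), and between tumor groups for Blk (0.0064). Blk was also -0.030 against Lgr5 glands without Lgr5 tumors 2, 6, 7, 8 and 9, -0.029 without tumors 2, 7 and 8, and -0.016 without all 7. Against K8 glands the replicate block gave Ms4a1 0.31, Blk 0.030, Cr2 0.093, Fcer2a 0.028, Pax5 0.020 and Cxcr5 0.044. Leaving out single arrays, the difference from K8 glands was -0.22 to 0.0091 for Ms4a1, -0.069 to 0.19 for Cd79a, -0.079 to 0.36 for Cd79b, -0.089 to 0.0023 for Blk and -0.062 to 0.012 for Cr2. None of these reversed differences passed the test. Fits that left out arrays had fewer samples, and why their counts changed was not tested. For the covariate, block and weights the cause was not tested either. Blk, Cxcr5 and Pax5 lie near the low end of the scale, where no detection calls are given, and their differences between tumor groups were 0.34 or less in size. Ms4a1, Cr2, Cd79a and Fcer2a also lie there in the K8 tumors, with medians of 5.02, 5.11, 5.12 and 5.43. Whether those values are above background is unknown, and the size of their differences depends on it.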

Other observations

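Some natural killer and dendritic cell genes were lower in the K8 than in the Lgr5 tumors, where 9.00% of all genes were called lower. Of 9 natural killer genes 4 were lower and 5 did not pass in limma. Among the 4 were Nkg7, a cytotoxic granule protein, which fell by 1.12 ± 0.31 (limma adjusted p = 0.0192), and Gzma, a granule protease, which fell by 0.34 ± 0.10 (limma adjusted p = 0.0202). Their list mean was 6.06 and 5.97 in Lgr5 tumors 6 and 9, whose B cell and T cell means lay within the range of the K8 tumors, and 6.16, 6.09 and 6.02 in Lgr5 tumors 2, 7 and 8. Of 11 dendritic cell genes 3 were lower and 8 did not pass: Siglech, a receptor of plasmacytoid dendritic cells, fell by 0.48 ± 0.10 (limma adjusted p = 0.0118), the lectin Cd209a fell by 1.66 ± 0.43 (limma adjusted p = 0.0157) and the lectin Clec10a fell by 0.95 ± 0.33 (limma adjusted p = 0.0450). Itgax, an integrin of dendritic cells and macrophages, had the opposite sign and did not pass (0.47 ± 0.31, limma adjusted p = 0.287).

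Of 12 macrophage genes 2 were lower and 1 was higher in the K8 than in the Lgr5 tumors, and 9 did not pass. Of all genes 9.00% were called lower and 12.3% higher. By sign alone 10 of the 12 were lower and 2 higher, with a median difference of -0.21. Mertk fell by 0.74 ± 0.24 (limma adjusted p = 0.0320) and Cd163 fell by 0.85 ± 0.28 (limma adjusted p = 0.0352) in the K8 tumors. Cd14, the lipopolysaccharide coreceptor, rose by 0.70 ± 0.23 (limma adjusted p = 0.0340).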
